A study of Homo sapiens with 12 samples.

Results

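The genes CCND1, CCND2, CCND3, CDK4, CDK6, CCNE1, CDK2, CDKN1B, RB1 and E2F1 form the core circuit that takes a cell from G1 into DNA replication. They were chosen by name, as 10 of the 32992 genes listed in any of the UMI tables, and matched to Ensembl identifiers through GENCODE. Their levels were compared between G1-sorted eHAP1 wildtype (WT) and SCC4 knockout (KO) cells, between single cells of each genotype, and with HEK293T cells sorted without a gate on the cell cycle. Levels are given in CPM, the UMIs of a gene per 1000000 UMIs of its library. All 10 genes passed the minimum of 0.1 UMI per cell in at least one genotype, CCND1 only through the KO cells, where it averaged 0.346 UMI per cell.

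D-type cyclins bind CDK4 and CDK6 and start the phosphorylation of the retinoblastoma protein RB1, which otherwise holds E2F transcription factors inactive on their target promoters. Cyclin E with CDK2 completes that phosphorylation, and the inhibitor p27, the product of CDKN1B, restrains CDK2. SCC4, whose gene is named MAU2, is a subunit of the loader that places cohesin on chromatin.

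LAST-seq extends poly-A RNA at its 3′ end with a T7 promoter and amplifies it without reverse transcription, which CEL-seq2 does first. The eHAP1 line is a haploid human line derived from a myeloid leukaemia. Its WT cells and the cells of a SCC4 KO clone made with Cas9 were stained and flow-sorted for live haploid cells in G1, and each genotype was given as 1 sample with 2 batches, of 73 and 75 WT cells and 77 and 76 KO cells. HEK293T, an embryonic kidney line that carries viral proteins able to bind the RB family, was sorted for live cells without a gate on the cell cycle and given as LAST-seq cells with the A60 spike-in mix (replicate 1) or the ERCC mix (replicate 2), as CEL-seq2 cells with both mixes (replicate 1) or the ERCC mix (replicate 2), as 15-pg RNA and lysate by LAST-seq, and as lysate by CEL-seq2, with 10 wells each. No separate clones or cultures are named for the 2 batches of a genotype, so ratios are given with 95% intervals that cover counting error only. The KO cells were grown from a single edited cell apart from the WT cells, so genotype and clone cannot be told apart. A gene is called changed when it is past 2-fold in the same direction in each batch.

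The eHAP1 cells held between 18022 and 926415 UMIs and the HEK293T wells between 62816 and 195438, and between 70 and 75 well barcodes were shared by any 2 eHAP1 batches. Of 5 blood cell markers, PTPRC, GATA1 and SPI1 were at 0 in all 4 eHAP1 batches. TAL1 was counted in every eHAP1 batch, and CD34 in both KO batches but in neither WT batch. The 5 summed to 4.21 and 0.163 CPM in WT and 3.11 and 1.63 in KO batches. At these levels the line was not clearly recognisable by them. The G2 and mitosis list of 18 genes was detected in full in every eHAP1 batch, with a summed level of 1228 to 1328 CPM, against 1299 and 2014 in the HEK293T LAST-seq replicates. The eHAP1 batches were thus near replicate 1 and below replicate 2. Of 5 kidney and neuronal markers of HEK293T, PAX2, LHX1 and NEFM were at 0 in LAST-seq replicate 1 and NEFM in replicate 2, with summed levels of 30.2 and 20.5 CPM. The same 5 summed to 22.5 and 24.9 CPM in WT and 61.2 and 58.6 in KO batches.

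The crRNA that made the knockout matches 1 place in GRCh38 with the NGG motif that Cas9 needs, at chr19:19338850-19338869 on the plus strand, in coding sequence of exon 5 of MAU2. It is shown because it defines the genotype, with the 3 bases of the motif in capitals.
SCC4 crRNA target: gcacacgcttgagaaggaccTGG
MAU2 stood at 44.2 and 41.2 CPM in WT batches 1 and 2, and at 9.17 and 14.5 in KO batches 1 and 2. It was 4.82-fold lower in batch 1 (95% interval 3.65 to 6.48) and 2.85-fold lower in batch 2 (2.39 to 3.41). LAST-seq counts RNA 3′ ends, away from the cut, so this level does not itself test the edit.

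Of the 10 genes, 1 was higher and 2 were lower in KO than in WT cells past 2-fold in each batch. Over all 16671 genes tested, 14.4% were called, 7.3% as higher and 7.08% as lower. The gene that rose was CCND1, and those that fell were RB1 and E2F1. CCND3, CDK6, CCNE1 and CDK2 were lower by 1.57-fold to 2.02-fold in the batches, and CCND3 missed the 2-fold rule through batch 2 alone. At 1.5-fold in each batch, a threshold chosen after seeing the data, 6 of the 10 were lower and 1 was higher, where 26.9% of all genes were called, 12.4% as lower and 14.4% as higher. The median log2 ratio of the 10 genes was -0.72, against 0.06 over all genes tested. Between the 2 batches of one genotype, 19.8% of genes in WT and 17% in KO cells were past 2-fold, and of the 10 genes only CCND1 in KO cells was. Summed over the 10 genes, WT batches held 605 and 605 CPM and KO batches 340 and 339.

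**Figure D1:**
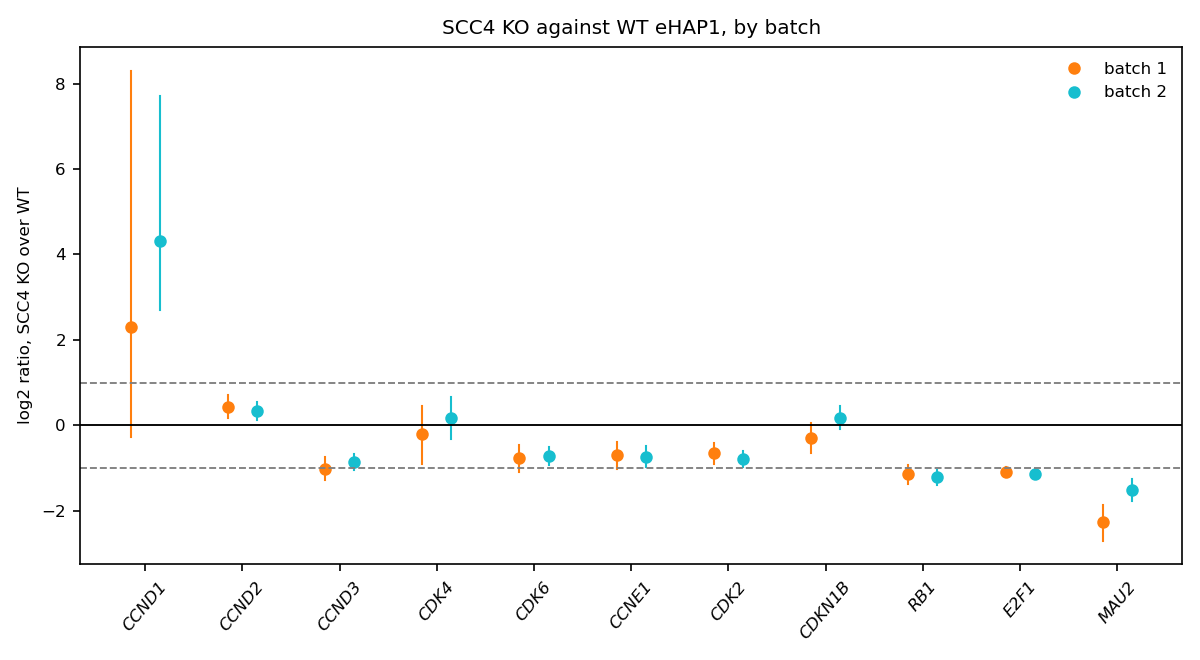
Log2 ratio of CPM, SCC4 KO over WT eHAP1 cells, with 0.5 UMI added, for the 10 genes and MAU2 in batch 1 (orange) and batch 2 (cyan). Lines are exact 95% counting intervals and dashed lines mark 2-fold. CCND1 lies above the upper dashed line in both batches with wide intervals, RB1 and E2F1 lie below the lower one in both, and CDK4 and CDKN1B change side between batches.

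Among the D-type cyclins, CCND1, the cyclin D1 gene at chr11:69641156-69654474, was counted with 1 UMI in 73 WT cells of batch 1 and 2 UMIs in 75 WT cells of batch 2. In KO cells it was counted with 6 UMIs in batch 1 and 47 in batch 2. These are 0.136, 0.163, 0.933 and 4.02 CPM. KO batch 2 stood apart from the other 3 batches, with a level 4.32-fold that of KO batch 1 (1.84 to 12.4).

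The KO over WT ratio of CCND1 was 6.87 in batch 1, with an interval from 0.834 to 316 that includes 1, and 24.8 in batch 2 (6.48 to 210). Over both batches it was 19.2 (6.22 to 96.0), and the size of this ratio rests on KO batch 2. A UMI was found in 1.37% and 2.67% of WT cells, in 7.79% of KO cells of batch 1, and in 46.1% of KO cells of batch 2. The median depth of these batches was 89978, 143882, 81789 and 152433 UMIs per cell. At 50000 UMIs per cell the shares were 0% of 72 and 0% of 73 WT cells. A limit of 3 cells, set here for a count of 0, would be 4.17% and 4.11% of them. In KO cells the shares were 3.95% of 76 in batch 1 and 23.7% of 76 in batch 2. The WT and then the KO batches had 1, 2, 1 and 0 cells left out. MAU2 also differed between the KO batches, at 1.58-fold more in batch 2 (1.17 to 2.16), and its part in the CCND1 values was not tested. The markers listed for HEK293T, a line with more CCND1, were also summed higher in KO than in WT cells. In each KO batch 5 of 5 were detected, against 2 and 3 of 5 in the WT batches. Their sums of 61.2 and 58.6 CPM in KO batches were also above the 30.2 and 20.5 of the HEK293T LAST-seq replicates themselves. NEFL, a neurofilament gene among them, was at 0 in both WT batches and at 7.93 and 14.5 CPM in KO batches 1 and 2. NEFM, another, was at 0 in both WT batches and at 0.933 and 0.771 CPM in the KO batches. In both HEK293T LAST-seq replicates NEFM was at 0. NEFL and NEFM made up the smaller part of the KO sums, and the rest of the list the larger part. PAX2 and LHX1 were detected in every eHAP1 batch, WT and KO, but were at 0 in HEK293T LAST-seq replicate 1. The part of these markers in the CCND1 values was not tested.

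CCND2, the cyclin D2 gene at chr12:4269771-4305353, stood at 28.8 and 27.7 CPM in WT batches and 38.9 and 34.9 in KO batches. KO batches were above WT batches by 1.35-fold (1.12 to 1.63) and 1.26-fold (1.09 to 1.46), a difference beyond counting error but under the 2-fold rule. CCND3, the cyclin D3 gene at chr6:41934934-42050357, went the other way. Its levels were 52.6 and 55.0 CPM in WT and 26.1 and 30.4 in KO batches. WT was above KO by 2.02-fold (1.68 to 2.43) in batch 1 and by 1.81-fold (1.59 to 2.06) in batch 2. The D-type cyclins thus had 1 gene near 0 in WT that was counted more in KO, 1 slightly higher and 1 lower.

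Of their kinase partners, CDK6, at chr7:92604921-92836573, stood at 35.1 and 38.5 CPM in WT and at 20.7 and 23.5 in KO batches. WT was above KO by 1.70-fold (1.37 to 2.11) and 1.64-fold (1.41 to 1.91). CDK4, the other kinase that binds D-type cyclins, lies at chr12:57747727-57756013 on the minus strand. It was counted at 6.11 and 5.53 CPM in WT and 5.28 and 6.25 in KO batches. Its KO over WT ratios of 0.866 (0.538 to 1.38) and 1.13 (0.801 to 1.60) both had intervals that include 1. At this depth they leave undetected a fall of up to 1.86-fold in batch 1 and a rise of up to 1.60-fold in batch 2.

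CCND1 and CDK4 were the only 2 of the 10 genes that averaged under 1 UMI per WT cell, and also the only 2 whose last 300 transcript bases overlap exons of another gene. In GENCODE v44, all 300 bases of CDK4 lie under exons of TSPAN31 and 236 of those of CCND1 under exons of LTO1, each on the opposite strand. The other 8 shared 0 bases. TSPAN31 stood at 14.7 and 13.6 CPM in WT and 9.48 and 4.54 in KO batches, and LTO1 at 17.4 and 14.6 in WT and 10.4 and 14.0 in KO batches. LTO1 was not higher in KO than in WT cells in either batch. The part of this overlap in the counts was not tested, and the annotation used by the authors is an earlier release.

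For the kinase complex that acts later in G1, CCNE1, the cyclin E1 gene at chr19:29811991-29824312, stood at 32.7 and 29.7 CPM in WT and 20.2 and 17.9 in KO batches. WT was above KO by 1.62-fold (1.30 to 2.02) and 1.66-fold (1.39 to 1.97). CDK2, its partner at chr12:55966781-55972789, stood at 54.8 and 54.2 CPM in WT and 34.8 and 31.7 in KO batches. WT was above KO by 1.57-fold (1.33 to 1.86) and 1.71-fold (1.5 to 1.95). Both genes were thus lower in KO beyond counting error in each batch and short of 2-fold.

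The inhibitor gene CDKN1B, at chr12:12685498-12722369, stood at 23.1 and 18.6 CPM in WT and 18.8 and 21.1 in KO batches. Its KO over WT ratio was 0.815 (0.640 to 1.04) in batch 1 and 1.13 (0.941 to 1.36) in batch 2. The direction differed between batches, and each interval includes 1.

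RB1, at chr13:48303744-48599436, encodes the retinoblastoma protein. It stood at 75.3 and 73.8 CPM in WT and 34.0 and 31.8 in KO batches, so WT was above KO by 2.21-fold (1.89 to 2.60) and 2.32-fold (2.06 to 2.63). E2F1, at chr20:33675477-33686385 on the minus strand, encodes the transcription factor that RB1 restrains. It stood at 296 and 302 CPM in WT and 140 and 138 in KO batches. WT was above KO by 2.12-fold (1.96 to 2.29) and 2.19-fold (2.07 to 2.32). For both genes the 2 WT batches lay within 1.02-fold of each other, and both lay above both KO batches.

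The fall of E2F1 was seen in nearly the whole cell population. In WT cells it ranged from 180 to 456 CPM in batch 1 with a median of 291, and from 55.5 to 487 in batch 2 with a median of 295. In KO cells it ranged from 35.9 to 242 with a median of 131 in batch 1, and from 56.7 to 219 with a median of 133 in batch 2. All 77 and all 76 KO cells lay below the WT median of their batch. For RB1, 96.1% and 98.7% of KO cells did, for CCND3 90.9% and 96.1%, and for CDKN1B 66.2% and 35.5%. By construction 49.3% of WT cells lie below their own median.

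**Figure D2:**
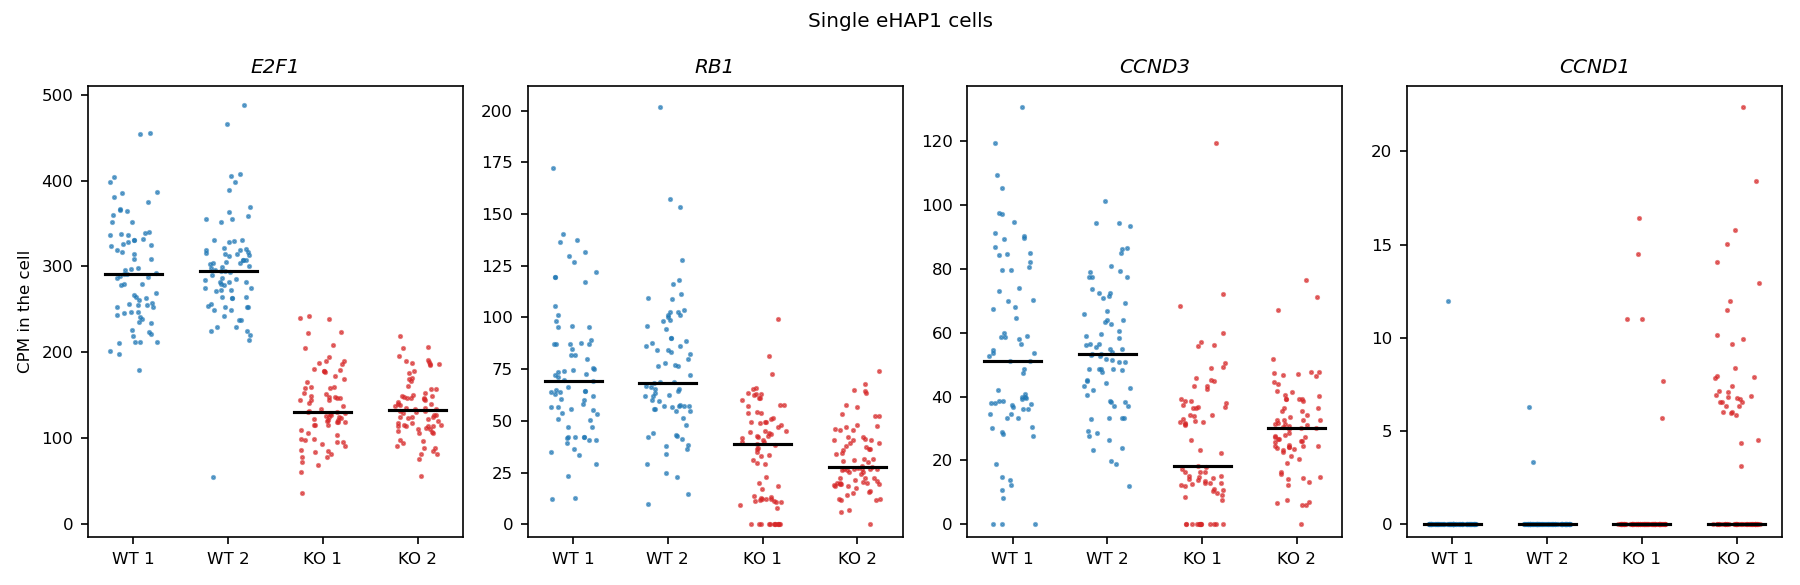
CPM of E2F1, RB1, CCND3 and CCND1 in single eHAP1 cells. Each point is a cell of WT batch 1 or 2 (blue) or KO batch 1 or 2 (red), black lines are medians, and each panel has its own axis. E2F1 medians are 291 and 295 in WT and 131 and 133 in KO, and most cells of every batch have no CCND1 UMI.

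The promoter of E2F1 is shown because this gene is itself known as a target of E2F factors. RefSeq on GRCh38.p14 gives the start region of E2F1 at chr20:33686336-33686635, from 250 bases before to 50 after the first transcript base. It was searched on both strands for the E2F motif, spelled as TTTGGCGC, TTTCGCGC, TTTCCCGC or TTTGCCGC, and matches are in capitals.
E2F1 promoter: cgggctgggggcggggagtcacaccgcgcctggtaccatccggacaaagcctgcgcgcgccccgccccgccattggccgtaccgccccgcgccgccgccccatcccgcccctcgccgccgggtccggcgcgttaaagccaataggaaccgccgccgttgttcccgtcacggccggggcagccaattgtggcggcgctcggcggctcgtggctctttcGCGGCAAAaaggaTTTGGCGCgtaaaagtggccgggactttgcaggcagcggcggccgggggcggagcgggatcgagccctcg
The 2 matches start at -33 on the opposite strand and at -20 on the strand of the gene, counted from the first transcript base, and do not overlap. Of 35116 promoters in the table, 3.31% hold a match and 0.145% hold 2 or more. The table has 10 promoters for 7 of the genes (CCND3, CDK4, CDK6, CCNE1, CDKN1B, RB1 and E2F1), and the 9 other than that of E2F1 hold none of these letters. The entries of CCND3, CDK4, CDKN1B and RB1 lie inside the GENCODE gene, that of RB1 at chr13:48476200-48476499, so the region at the first base of these 4 genes was not searched.

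The other G1 pathway genes, a list of inhibitors, E2F and DP factors, ubiquitin ligase subunits and MuvB complex members, had 32 of 34 genes tested. Of these, 2 were higher and 2 were lower in KO cells past 2-fold in each batch. CDKN1A, the gene of the CDK inhibitor p21, rose from 6.24 and 6.58 to 17.9 and 15.8 CPM. TFDP2, a dimerization partner of E2F factors, rose from 10.6 and 11.0 to 23.0 and 24.3. LIN9, a MuvB subunit, fell from 61.9 and 70.6 to 18.2 and 19.9. E2F5, a repressor E2F, fell from 11.1 and 6.18 to 3.42 and 2.65.

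Of 19 E2F target and S-phase genes tested, 1 was higher and 0 were lower past 2-fold. This list, the G1 pathway list and the G2 and mitosis list had 19, 32 and 17 genes tested. Over them together, edgeR's quasi-likelihood test on the batch sums called 35 at an adjusted p of 0.05, where the 2-fold rule called 6. Over all genes tested, edgeR called 27.8% and the 2-fold rule 14.4%. The S-phase gene past 2-fold was TYMS, named because the count is 1. It averaged 0.027 UMI per cell in WT and 0.111 in KO cells, so it passed the minimum only through the KO cells, and its batch 1 ratio of 3.05 had an interval (0.733 to 17.9) that includes 1. MCM2 and CCNE2 were listed at 0 in all 4 eHAP1 batches. Of 17 G2 and mitosis genes tested, only CDK1, the mitotic kinase gene, was called, at 106 and 106 CPM in WT and 46.2 and 48.3 in KO batches. The median log2 ratio was -0.05 for the other G1 pathway genes, 0.05 for the E2F target and S-phase genes and -0.00334 for the G2 and mitosis genes, each near the 0.06 of all genes and above the -0.72 of the 10 genes.

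The cell-to-cell spread was given as a dispersion, the squared coefficient of variation (CV) between cells beyond that expected from counting at each cell's depth. It was computed for the 8 genes with at least 1 UMI per cell in each genotype and batch, which left out CCND1 and CDK4. The dispersion was higher in KO than in WT cells in both batches for 2 of the 8, CCNE1 and E2F1, while 34.2% of 7139 genes were. It was lower in both batches for 1, CCND2, while 21.7% of genes were. The genes thus gave no count above that of all genes.

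E2F1 had dispersions of 0.00774 and 0.00697 in WT and 0.0117 and 0.0156 in KO batches. Its CVs were 0.206 and 0.201 in WT and 0.318 and 0.252 in KO batches, and counting alone gave 0.194, 0.153, 0.297 and 0.220. CCNE1 had dispersions of -0.0158 and -0.00834 in WT, below the value from counting, and 0.259 and 0.0103 in KO batches. CCND2 had 0.102 and 0.0822 in WT and 0.0951 and 0.0556 in KO batches. In batch 1 alone 7 of the 8 were higher in KO and in batch 2 alone 2 were. The median dispersion of all 7139 genes was also higher in KO in batch 1, at 0.0459 against 0.0185 in WT. In batch 2 it was 0.0220 in KO and 0.0247 in WT. The 7 of 8 thus went the way of all genes, whose share was not computed for 1 batch alone. After thinning to 50000 UMIs the 2 genes were CCND3 and E2F1. For CDKN1B the batches of one genotype differed as much as the genotypes, with 0.0234 and 0.186 in WT and 0.185 and 0.108 in KO batches.

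**Figure D3:**
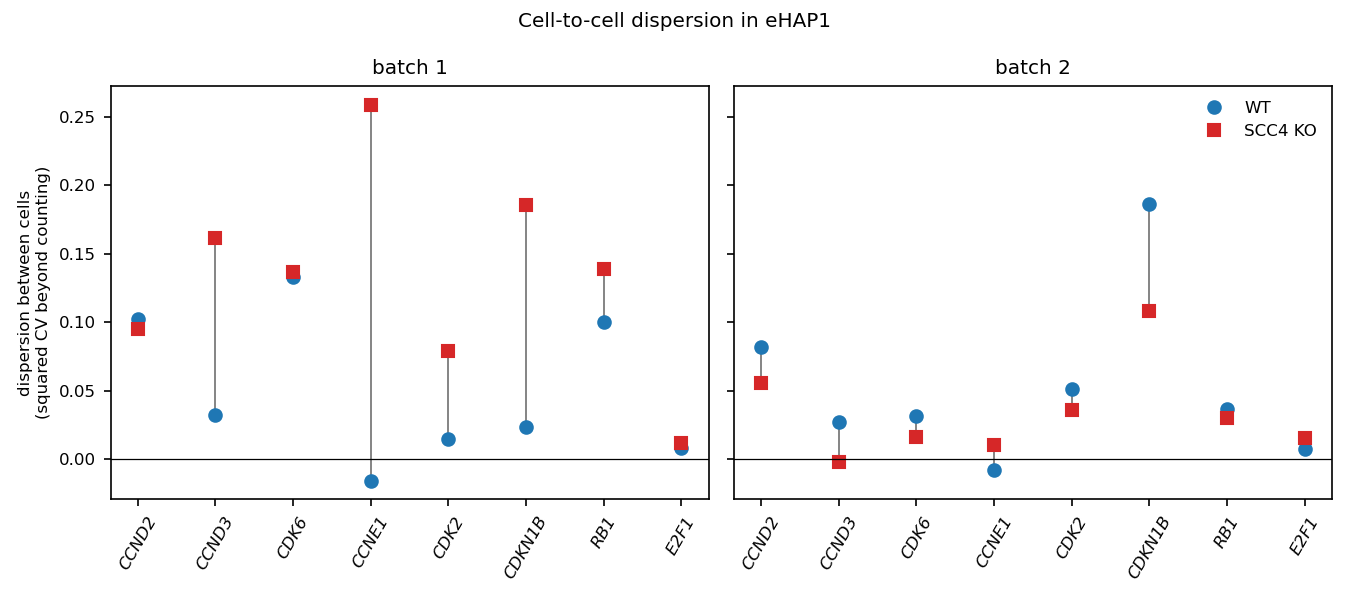
Dispersion between cells, the squared CV beyond counting, of the 8 genes with at least 1 UMI per cell, in WT (blue circles) and SCC4 KO (red squares) eHAP1 cells, for batch 1 on the left and batch 2 on the right. E2F1 lies between 0.00697 and 0.0156 in all 4 batches, and most genes change order between the batches.

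Levels of different genes in the same cell were compared at 50000 UMIs per cell. Over the 28 pairs of the 8 genes, Spearman's rho across cells ranged from -0.33 to 0.24 in the 4 batches, and the median per batch lay between -0.05 and 0.01. The cells of a batch share a library and a pool. At a few UMIs per gene and cell, such weak values describe no relation.

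HEK293T cells, not gated on the cell cycle, were then set against WT eHAP1 cells, both by LAST-seq. A gene was called when each of the 4 pairs of a HEK293T replicate and a WT batch was past 2-fold in the same direction. Of the 10 genes, 1 was higher in HEK293T cells and 4 were lower, while 29.6% of 18048 genes tested were called, 17.2% as higher and 12.4% as lower. The median log2 ratio was 0.21 over all genes tested and -0.41 for the 10 genes. Cell line, sort and pool differ together here and cannot be told apart.

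CCND1 stood at 13.3 and 8.61 CPM in HEK293T LAST-seq replicates 1 and 2, and 32 UMIs stood against 3 in WT eHAP1, a ratio of 71.5 (22.4 to 365). It passed the minimum in this comparison only through the HEK293T cells, where it is high. RB1 stood at 26.0 and 15.2 CPM, so that WT eHAP1 was 3.64-fold higher (2.81 to 4.79). E2F1 stood at 90.5 and 84.1, with WT eHAP1 3.43-fold higher (3.03 to 3.91). The order of E2F1 was thus WT eHAP1, KO eHAP1 and HEK293T, with no overlap between these 6 LAST-seq cell libraries. HEK293T 15-pg RNA by LAST-seq fell outside this order, at 237 CPM against 140 and 138 in the KO batches.

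CCND3 stood at 23.2 and 25.2 CPM in HEK293T cells, with WT eHAP1 2.24-fold higher (1.76 to 2.88), close to the KO batches at 26.1 and 30.4. CDK4 was counted with 0 UMIs in replicate 1, with an interval up to 2.59 CPM, and with 1 UMI in replicate 2. Against 113 UMIs in WT eHAP1 this gave a ratio of WT over HEK293T of 16.9 (2.96 to 672). The other 5 genes were not called, with HEK293T over WT ratios of 0.800 for CCND2, 0.714 for CDK6, 0.796 for CCNE1, 0.782 for CDK2 and 1.06 for CDKN1B. The interval of CDK6 (0.558 to 0.903) and that of CDK2 (0.645 to 0.942) lay below 1.

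Genes of the other lists were also set against WT eHAP1. Of 34 other G1 pathway genes, 9 were higher and 3 lower in HEK293T cells. CDKN1C, the gene of the CDK inhibitor p57, stood at 6.32 and 11.9 CPM against 120 and 120. TFDP2 stood at 53.3 and 47.7 against 10.6 and 11.0, and E2F5 at 0.702 and 2.65 against 11.1 and 6.18. MNAT1, a subunit of the CDK-activating kinase, stood at 7.02 and 7.95 against 3.26 and 1.87, and LIN54, a DNA-binding MuvB subunit, at 11.9 and 13.9 against 5.29 and 5.12.

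Of 18 E2F target and S-phase genes tested, 1 was higher and 0 were lower in HEK293T cells, namely CDC6, a replication licensing gene, at 81.4 and 78.8 CPM against 31.7 and 33.4. Of 18 G2 and mitosis genes, 3 were higher and 0 were lower. UBE2C, a ubiquitin-conjugating enzyme of mitotic exit, stood at 22.5 and 83.5 against 0.678 and 0.406, and passed the minimum only through HEK293T, at 0.0676 UMI per WT cell. The spindle genes TPX2 and KIF11 stood at 138 and 152 against 55.1 and 51.9, and at 124 and 130 against 53.0 and 50.2.

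**Figure D4:**
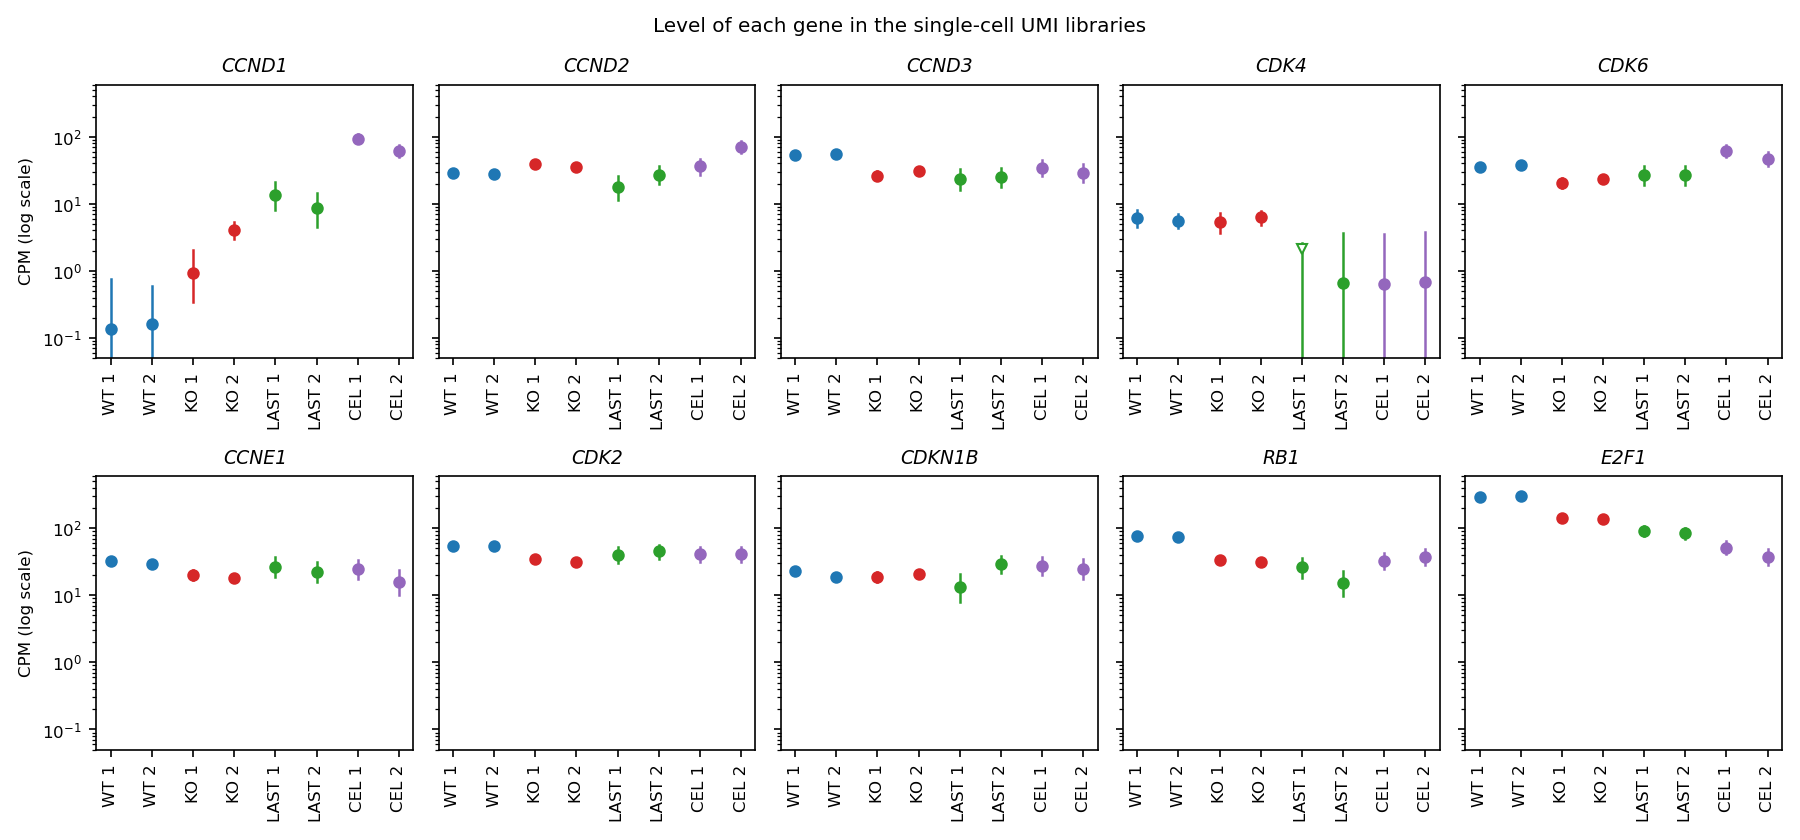
CPM (log axis) of each of the 10 genes in WT batches (blue), KO batches (red), HEK293T LAST-seq replicates (green) and HEK293T CEL-seq2 replicates (purple). Lines are exact 95% Poisson intervals, cut at the axis floor. The open triangle for CDK4 in LAST-seq replicate 1 marks the level of 3 UMIs, 2.11 CPM, since its count was 0. CCND1 differs most between groups, from 0.136 in WT batch 1 to 93.9 in CEL-seq2 replicate 1.

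In HEK293T single cells, LAST-seq and CEL-seq2 were compared over all 4 pairs of replicates. Only CCND1 was past 2-fold in every pair, lower in LAST-seq, while 30.9% of 22906 genes tested were called, 26.8% as lower and 4.06% as higher in LAST-seq. The median log2 ratio of LAST-seq over CEL-seq2 was -0.89 over all genes and -0.54 for the 10 genes. CCND1 stood at 93.9 and 61.8 CPM in CEL-seq2, 7.19-fold above LAST-seq (4.96 to 10.8). It was found in 10 of 10 cells of each CEL-seq2 replicate and in 9 and 6 of 10 cells by LAST-seq.

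E2F1 went the other way, at 51.5 and 37.8 CPM in CEL-seq2, and LAST-seq was 1.94-fold higher (1.57 to 2.41). CDK2 was close in both assays, at 41.2 and 41.2 CPM in CEL-seq2 against 40.0 and 45.0 in LAST-seq, with a LAST-seq over CEL-seq2 ratio of 1.03 (0.800 to 1.34). CEL-seq2 was above LAST-seq by 2.33-fold (1.74 to 3.16) for CCND2, 2.04-fold (1.55 to 2.70) for CDK6 and 1.72-fold (1.24 to 2.41) for RB1, though not past 2-fold in each pair. The intervals for CCND3, CCNE1 and CDKN1B include 1. CDK4 was counted with 1 UMI in each CEL-seq2 replicate. CCND1 had log2 ratios of LAST-seq over CEL-seq2 from -3.40 to -2.18 in the 4 pairs. When any 1 of the 4 libraries was left out, 2 or 3 genes were called, and the share of all genes was not computed for these looser rules. Leaving out a library removes pairs from the rule, which could not lower this count.

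The other lists had 10 of 34, 2 of 20 and 4 of 18 genes called between the assays, each a share below the 30.9% of all genes tested. Of 34 other G1 pathway genes, 4 were higher and 6 lower in LAST-seq. CDKN2B, the gene of the CDK4 and CDK6 inhibitor p15, stood at 1.40 and 5.30 CPM against 49.5 and 11.7 in CEL-seq2. CDK7, the CDK-activating kinase gene, stood at 2.81 and 3.97 against 21.9 and 18.5, and its partner MNAT1 at 7.02 and 7.95 against 34.7 and 31.6. FBXW7, a ubiquitin ligase subunit that recognises cyclin E, stood at 8.42 and 9.94 against 56.0 and 35.7, and AMBRA1, one that recognises D-type cyclins, at 37.2 and 41.7 against 10.9 and 8.24.

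Of 20 E2F target and S-phase genes, 0 were higher and 2 lower in LAST-seq, the low-count genes MCM2 and TYMS, which passed the minimum only through CEL-seq2 and are named because the count is 2. Of 18 G2 and mitosis genes, 0 were higher and 4 lower. The kinetochore genes CENPE and CENPF stood at 17.5 and 23.2 CPM against 245 and 144, and at 84.9 and 99.4 against 665 and 379. TOP2A, a topoisomerase gene, stood at 61.1 and 158 against 397 and 399, and CDC20, an activator of the anaphase-promoting complex, at 37.9 and 30.5 against 106 and 88.6.

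The wells of HEK293T lysate carry the same material and served as the background of the spread between cells. CVs were compared for the 6 genes with at least 1 UMI per well in both cell libraries and the lysate. CCND3, CCNE1 and E2F1 had a larger CV in both cell libraries than in lysate wells, 3 of 6, while 13.2% of 6547 genes did. E2F1 had CVs of 0.335 and 0.558 between cells and 0.297 between lysate wells. CCND3 had 0.657 and 0.800 against 0.500, and CCNE1 0.540 and 0.605 against 0.481. At 50000 UMIs per well 0 of the genes met the rule, and against 15-pg RNA wells 4 did. The minimum of 1 UMI per well was applied anew in both, so the genes compared can differ from the 6. The share of all genes was not computed for either, so these counts cannot be set against the 13.2%. The wells held medians of 142024 and 155214 UMIs in cells and 81710 in lysate. Only the count at 50000 UMIs per well, which was 0, compared cells and lysate at equal depth.

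The level of E2F1 in 15-pg RNA was 237 CPM, 2.59-fold (1.99 to 3.41) above the 91.5 of lysate and above both cell libraries. RB1 was counted with 2 UMIs in lysate, at 2.51 CPM, against 23 UMIs in 15-pg RNA, a ratio of 8.28 (2.05 to 72.4). CDK4 was at 0 UMIs in both, with intervals up to 4.62 CPM in lysate and 3.33 in 15-pg RNA. CDKN1A, of the other G1 genes, stood at 99.2 in 15-pg RNA and 35.1 in lysate, against 0 and 19.9 in the cells.

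Genes with the most similar levels were found by Pearson's r of log2(CPM + 1) over the 8 single-cell libraries, among 14184 genes with at least 1 UMI per cell in one of them. These libraries differ in line and assay, so r describes their order only. The highest were CBLB (0.998) and PI4KB (0.984) for CDK6, SMG1P2 (0.996) and PXK (0.993) for CCND1, and TMBIM6 (0.996) and COPRS (0.990) for E2F1. BASP1 (0.995) and SLITRK2 (0.995) led for CDK4, LINC00623 (0.984) and TSHZ1 (0.980) for CCND3, and MYO18A (0.982) and TPM3 (0.976) for CCND2. CADM2 (0.969) and GXYLT1 (0.967) led for RB1, PROSER2 (0.969) and CEP63 (0.962) for CDKN1B, BRK1 (0.949) and NELFA (0.939) for CCNE1, and MTHFD2 (0.942) and CRNKL1 (0.934) for CDK2. None of the 10 genes was among the closest pair of another.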

How the data were processed

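UMI counts per gene and well were taken from 4 LAST-seq and 3 CEL-seq2 libraries of HEK293T material and from the eHAP1 samples of both genotypes. The authors made these deposited counts with bcl2fastq 2.20 and zUMIs on GRCh38, as UMIs of exon reads, and did not normalize them. Across the assays, they brought reads to the same number. Whether this was also done for the eHAP1 cells is not stated separately. Those cells held between 18022 and 926415 UMIs. Wells of eHAP1 with few exon reads had been removed. Whether the batch correction by ComBat-seq precedes the deposited values is not given in the sources used here. Read counts of 6 SMART-seq cells were used for 1 observation; the other read tables were not used.

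UMIs were summed per library or batch, spike-ins left out, and scaled to 1000000 UMIs (CPM), with 0.5 UMI added for log2 ratios. Genes with at least 0.1 UMI per cell in one group were tested. Cells were not used as replicates, and no p-value was computed for the main comparisons. Ratio intervals are exact conditional binomial and level intervals exact Poisson or Clopper-Pearson, at 95%. Batch sums were also fitted with edgeR 4.0.16 and DESeq2 1.42.0; all were tested on simulated data. Deviations of batch 1 from the genotype mean correlated between genotypes with r = 0.02 over 16671 genes. A batch correction before deposit could also give such a value, so it does not decide whether equal batch numbers mark a shared batch. The pairing of WT and KO batches thus follows their numbers only. Python 3.11.15 with numpy 2.4.6 and scipy 1.17.1, and R 4.3.3, were used.

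The genes and the lists were chosen with earlier results of these data known. Of each other list, genes called with at least 1 UMI per cell in one group were named, at most 5 per list and comparison by size of ratio, besides MAU2 and the 2 genes most like each of the 10. Other genes named were chosen after their values were seen. A gene of the HEK293T marker list is not reported here.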

Additional observations from a re-analysis of the deposited data

Results flagged for a closer look

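The KO over WT log2 ratio of CDK4 was -0.20 in batch 1 and 0.18 in batch 2, and that of CDKN1B was -0.29 in batch 1 and 0.18 in batch 2. These were picked out because the batches went in opposite directions. The difference between batches was not tested, and each ratio's counting interval includes 1.

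CDK4 was picked out in data outside the UMI tables. In the sequencing reads of 6 HEK293T cells by SMART-seq, which reads along the whole transcript, it was found in 6 of 6 cells, with 106 to 359 reads and a median of 183 reads per 1000000 reads. The cells held 812582 to 818780 reads. Over the 7 HEK293T UMI libraries CDK4 had 0 or 1 UMI each. E2F1, CCND3 and CDKN1B had 0 reads in all 6 SMART-seq cells, while each had UMIs in all 7 UMI libraries. The cause was not tested. These reads carry no UMIs and are not independent molecules.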

How the results depend on the processing

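The count of genes past 2-fold between KO and WT cells was 3, and 3 or 4 without either batch. Leaving a batch out removes a condition from the rule, so it cannot lower such a count. The count was 7 at 1.5-fold, a threshold chosen after seeing the data. It was also 7 at an adjusted p of 0.05 by edgeR's quasi-likelihood test without a batch term, which called 27.8% of genes, by the same test with the batch as a replicate block, which called 32.8%, and by DESeq2, which called 28.3%. These were CCND1, RB1, E2F1, CCND3, CDK6, CCNE1 and CDK2. Their edgeR adjusted p without the block lay between 7.40e-06 for E2F1 and 0.0396 for CCND1, and that of CCND1 was 0.00721 with the block and 0.0184 by DESeq2. These p-values rest on the spread between the 2 batches of each genotype, for which no separate clones are named. The other 8 of 14 alternatives kept 3. Over these 8, the share of all genes called ran from 10.6% after thinning to 28.2% without a minimum mean. Of the 10 log2 ratios, 8 kept their direction under all 14 alternatives, CDK4 under 12 and CDKN1B under 13. The alternatives at 1.5-fold and without a minimum mean leave the log2 ratio as it is by construction.

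Over the 3 other lists together, with 32, 19 and 17 genes tested by the main rule, 6 were called, 3 after thinning and 12 at 1.5-fold. The counts were 35, 33 and 30 by edgeR, edgeR with the replicate block and DESeq2. Over all genes tested, 14.4% were called, 10.6% after thinning, 26.9% at 1.5-fold, and 27.8%, 32.8% and 28.3% by these fits. Without batch 1 the lists had 9 genes called and without batch 2 they had 10, while 28.6% and 29.3% of all genes were called.

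Between HEK293T and WT eHAP1 cells the count of 5 became 4 after thinning and stayed 5 otherwise. Between LAST-seq and CEL-seq2 the count of 1 became 2 with TMM library sizes and 2 to 3 without any 1 library. With the same minimum, leaving out a library can keep or raise these counts but not lower them. The share of all genes was not computed for these alternatives. The count of genes with a higher dispersion in KO cells, 2, became 5 with the CV in place of the dispersion, which does not remove counting error, and 2 to 7 with 1 batch alone. The count of genes with a larger CV in cells than in lysate, 3, became 0 at 50000 UMIs per well and 4 against 15-pg RNA wells. For these alternatives of the dispersion count and the CV count, the share of all genes was not computed. CCND1 and CDK4 rest on under 1 UMI per cell in each eHAP1 genotype, which limits the precision of their ratios.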
